A study of Saccharomyces cerevisiae with 6 samples.

Results

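The genes described here belong to the amino acid sensing system of the budding yeast plasma membrane, and they number 10 of the 5449 genes tested. Of these, 7 encode amino acid permeases (BAP2, BAP3, AGP1, GNP1, TAT1, TAT2 and DIP5), 1 encodes the sensor itself (SSY1), and the other two encode the transcription factors that act downstream of it (STP1 and STP2). Members were taken by their annotated gene symbol, and each of the 10 had 1 probe set on the Affymetrix Yeast Genome 2.0 array. The set was chosen by pathway and selected on a measured value, the log2 difference between GmbHLHm1 and empty vector cells, with BAP3 as its leading gene, so that difference is described below for the 10 genes without a test.

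All cells were strain 26972c, an ammonium transport mutant that carries the mep1-1 allele, a deletion of MEP2 and an intact MEP3, and is ura-. The 3 control cultures held the empty plasmid pYES3, and the 3 others carried GmbHLHm1 (SAT1) on the same plasmid behind a galactose-driven promoter. GmbHLHm1 comes from soybean and encodes a transcription factor of the basic helix-loop-helix family. Every culture had first grown with 2% glucose and 0.1% L-proline, in a starter of 24 h and then for 2 days, and was then moved for 12 h to minimal medium with 2% galactose and 0.5 mM ammonium sulfate, which gives 1 mM ammonium; the labels name no amino acid in that last medium. The labels call the cultures independent replicates, but each set was seeded from a starter culture, so p-values cover only the spread between these samples, and a starter or transformant effect cannot be told apart from that of GmbHLHm1 if each construct had its own starter.

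Yeast senses amino acids outside the cell through a complex of Ssy1, Ptr3 and Ssy5. Ssy1 resembles a permease but signals instead of transporting; when it binds an amino acid, the protease Ssy5 clips the N-terminal part off Stp1 and Stp2, which then enter the nucleus and switch on permease genes. The pathway is thus run largely by protein processing, which transcript arrays do not measure. Several of the permease genes are also under nitrogen control by GATA factors.

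On the 6 arrays the median log2 intensity of the tested genes lay between 10.32 and 10.37, and precision is limited by there being 3 arrays in each group. All 10 genes lay above the background level on all 6 arrays, as did 5348 of the 5449 tested genes. Background is the 95th percentile of probe sets with no intended target in this sample. Its intensity was 25.7 to 26.9 on the empty vector arrays and 23.2 to 24.3 on the GmbHLHm1 arrays. The deleted MEP2 lay below background on all 6. URA3 lay above background on all 6 although the strain is ura-, with log2 means of 9.88 in the empty vector and 11.23 in GmbHLHm1. The source of that URA3 signal was not tested. MEP1, MEP3 and URA3 had log2 differences of -0.46, 0.91 and 1.35 with limma's adjusted p between 0.0105 and 0.0138, and each missed the threshold without at least 1 of the empty vector arrays, with adjusted p up to 0.0677. Control probe sets for ribosomal RNA (18S and 25S, 16 in all) were lower on the GmbHLHm1 arrays, by a median log2 difference of -1.01, with array means of 7.83 to 8.27 against 8.80 to 9.46, whereas 27 hybridization controls had one of -0.09; the part of this in the results below was not tested. Within the empty vector group the median SD over all tested genes was 0.0502 on the log2 scale, and within the GmbHLHm1 group it was 0.0875.

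Of the 10 genes, only BAP3 was higher in GmbHLHm1 cells without overlap between the groups, BAP2, GNP1, DIP5 and SSY1 were lower without overlap, and in the other 5 the groups overlapped. Over all tested genes the groups did not overlap in 33.2%, 19.3% higher and 13.9% lower; since the contrast was known when the genes were chosen, nothing is read from the comparison of these shares. The median log2 difference was -0.07 over the 10 genes and 0.02 over all tested genes. BAP3 lay at 4.13, and the other 9 lay between -0.77 and 0.02.

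**Figure D1:**
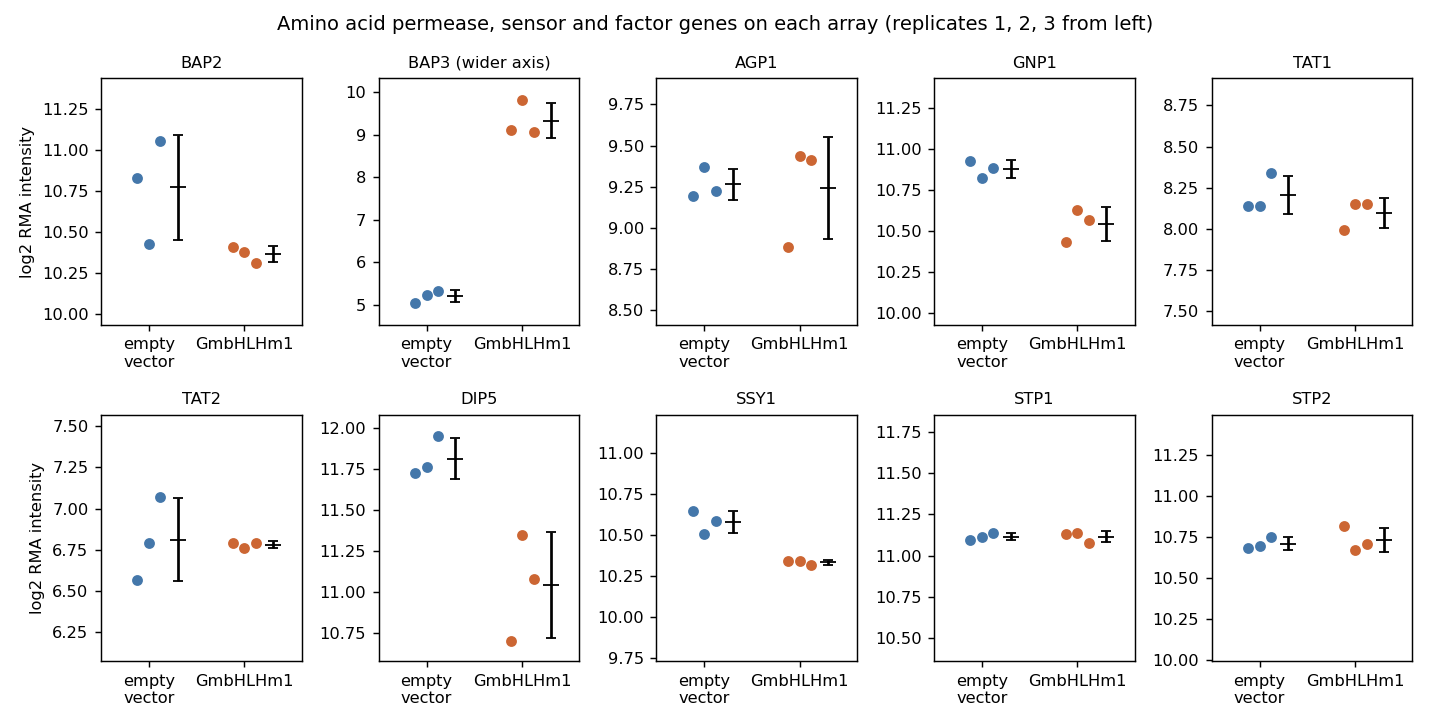
Log2 RMA intensity of each of the 10 genes on each array, blue for the empty vector and orange for GmbHLHm1, with replicates 1, 2 and 3 from left to right and the mean ± SD in black (n = 3 per group). The axes span the same range except for BAP3, which has a wider one; BAP3 is the gene whose groups stand far apart, between 5.04 and 5.32 against 9.07 to 9.81.

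BAP3 (YDR046C) encodes a permease for branched-chain and several other amino acids. Its intensity was 32.9, 37.5 and 40.1 on empty vector replicates 1, 2 and 3, and 556, 898 and 537 on GmbHLHm1 replicates 1, 2 and 3. All 3 GmbHLHm1 arrays lay far above all 3 empty vector arrays, and replicate 2 was the highest of them. On the log2 scale the means were 5.20 ± 0.14 and 9.33 ± 0.41 (SD, n = 3 per group), a difference of 4.13 ± 0.19 (standard error from the limma fit) or a fold of 17.6, and the gap between the nearest arrays of the groups was 3.74. In the empty vector cells BAP3 stood at 1.23 to 1.56 times the background level, and in the GmbHLHm1 cells at 22.5 to 37.0 times that level. The fold therefore rests on 3 dim values in the empty vector. Of all tested genes 2 had a larger difference.

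BAP2 (YBR068C) encodes the other branched-chain amino acid permease, a close relative of BAP3. Its log2 values were 10.83, 10.43 and 11.06 in the empty vector and 10.41, 10.38 and 10.32 in GmbHLHm1. The GmbHLHm1 arrays sat just below the lowest empty vector array, by 0.02, and the empty vector arrays themselves spanned 0.63. The difference was -0.41 ± 0.15 (SE), and it was -0.26 without empty vector replicate 3 or -0.58 without replicate 2.

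TAT1 (YBR069C), a permease gene for tyrosine and some branched-chain amino acids, is the direct neighbour of BAP2 on its chromosome. It read 8.14, 8.14 and 8.34 in the empty vector and 7.99, 8.15 and 8.15 in GmbHLHm1, so the groups overlapped. TAT2 (YOL020W), the high-affinity tryptophan permease gene, had 6.57, 6.79 and 7.07 against 6.79, 6.76 and 6.79, with all GmbHLHm1 values inside the empty vector range. Their log2 differences were -0.11 ± 0.08 and -0.03 ± 0.12 (SE). When the tested genes were quantile normalized these became -0.23 and -0.25.

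Among the permeases of other specificity, DIP5 (YPL265W), which carries glutamate and aspartate, had the lowest log2 difference of the set. Its log2 intensities were 11.72, 11.76 and 11.95 in the empty vector and 10.70, 11.35 and 11.08 in GmbHLHm1. The groups were 0.37 apart at their nearest, with GmbHLHm1 replicate 1 the lowest. The difference was -0.77 ± 0.16 (SE), or 1.70-fold lower, and 1.63% of all tested genes had a larger absolute difference. Its size depended on single arrays, at -0.60 without GmbHLHm1 replicate 1 and -0.92 without GmbHLHm1 replicate 2.

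GNP1 (YDR508C), the high-affinity glutamine permease gene, had 10.93, 10.82 and 10.88 in the empty vector and 10.43, 10.63 and 10.56 in GmbHLHm1. Each GmbHLHm1 value was below each empty vector value, and the difference was -0.34 ± 0.06 (SE). AGP1 (YCL025C), a permease gene of broad specificity, had 9.19, 9.37 and 9.23 against 8.88, 9.43 and 9.41. Here GmbHLHm1 replicate 1 was the lowest of the 6 arrays and the other two GmbHLHm1 arrays were the highest. The AGP1 difference of -0.02 ± 0.15 (SE) changed to 0.16 without GmbHLHm1 replicate 1, so it has no settled direction.

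SSY1 (YDR160W), the sensor gene, had 10.64, 10.51 and 10.59 in the empty vector and 10.34, 10.34 and 10.32 in GmbHLHm1. The 3 GmbHLHm1 arrays agreed within 0.03 and lay 0.16 below the lowest empty vector array. The difference was -0.25 ± 0.05 (SE), a 1.19-fold lower level, which sits at about the 5th percentile of all tested genes (-0.24).

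STP1 (YDR463W), the gene of the first factor, gave 11.09, 11.12 and 11.14 in the empty vector and 11.13, 11.14 and 11.08 in GmbHLHm1, and the mean was 11.11 in both groups. STP2 (YHR006W), the gene of the second, gave 10.68, 10.69 and 10.75 against 10.81, 10.67 and 10.71. For both factor genes the groups overlapped, and their standard errors of 0.04 and 0.05 were among the smaller ones of the set. The factor genes thus read nearly the same in both groups while BAP3 differed 17.6-fold; the clipping of the factors was not measured.

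**Figure D2:**
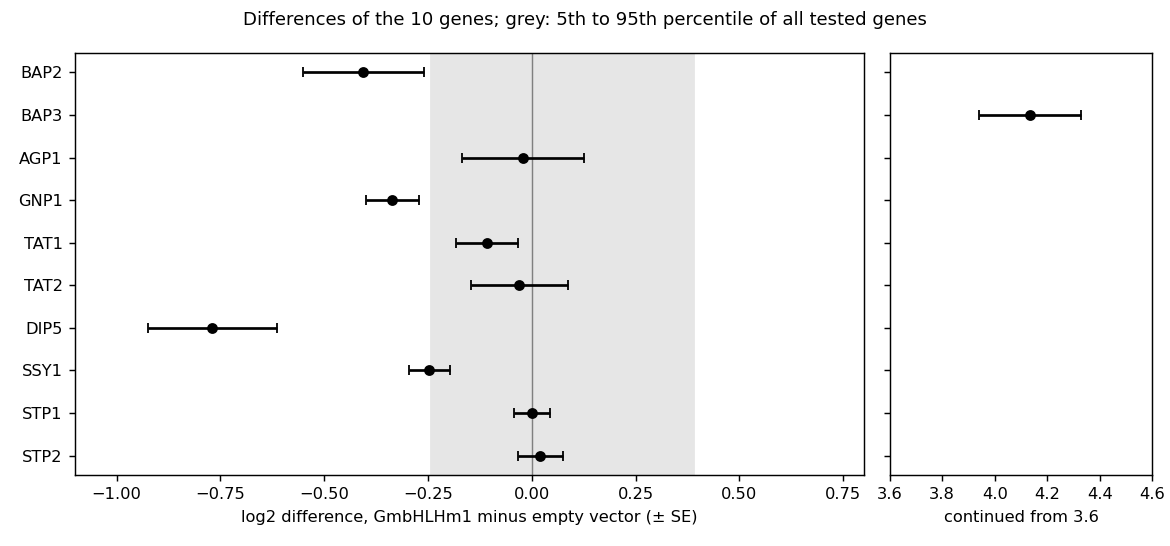
Log2 difference of each gene, GmbHLHm1 minus empty vector, with its standard error; the grey band runs from the 5th (-0.24) to the 95th percentile (0.39) of all tested genes, and the axis continues in the right panel. BAP3 lies at 4.13, far to the right of the band, while DIP5, BAP2 and GNP1 lie to its left and SSY1 at its left edge.

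The replicates of a group did not vary alike over the set. Empty vector replicate 3 was the highest of its group for 7 of the 10 genes (BAP2, BAP3, TAT1, TAT2, DIP5, STP1 and STP2), against 37.0% of all tested genes, and replicate 1 was the lowest for 7, against 48.6%. GmbHLHm1 replicate 2 was the highest of its group for 6, among them BAP3, AGP1, GNP1 and DIP5, against 33.7% of all tested genes.

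The genes whose profile over the 6 arrays was nearest to that of BAP3 were not among the other 9. Each gene was taken relative to its own empty vector mean, and the mean absolute gap to BAP3 was used as the measure. This gap mostly follows the size of the group difference, which was known when the set was chosen. The other 9 had differences between -0.77 and 0.02 against 4.13 for BAP3. Their distance from BAP3 was thus fixed beforehand, and nothing is read from it. Shared regulation with the nearest genes was not tested. RIM4, which encodes an RNA-binding protein of meiosis, was nearest with a gap of 0.19, followed by PHM6, a phosphate response gene, with 0.25. PHO84, the high-affinity phosphate transporter gene, came next with 0.60, then PRY2, which encodes a secreted sterol-binding protein, with 0.88, and DAN1, a cell wall mannoprotein gene, with 0.90. Their log2 differences were 3.89, 3.75, 5.27, 2.49 and 2.36. RIM4, PHM6 and DAN1 were, like BAP3, highest on GmbHLHm1 replicate 2, at 11.13, 9.99 and 8.83. PHO84 was nearly level on the 3 arrays, at 13.71, 13.71 and 13.74. The gap was taken over these same arrays, so a shared order of replicates is partly built into the choice. Of all tested genes, 33.7% were highest in their group on GmbHLHm1 replicate 2. Among the other 9 genes of the set the gap to BAP3 ran from 2.10 for STP2 to 2.48 for DIP5.

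**Figure D3:**
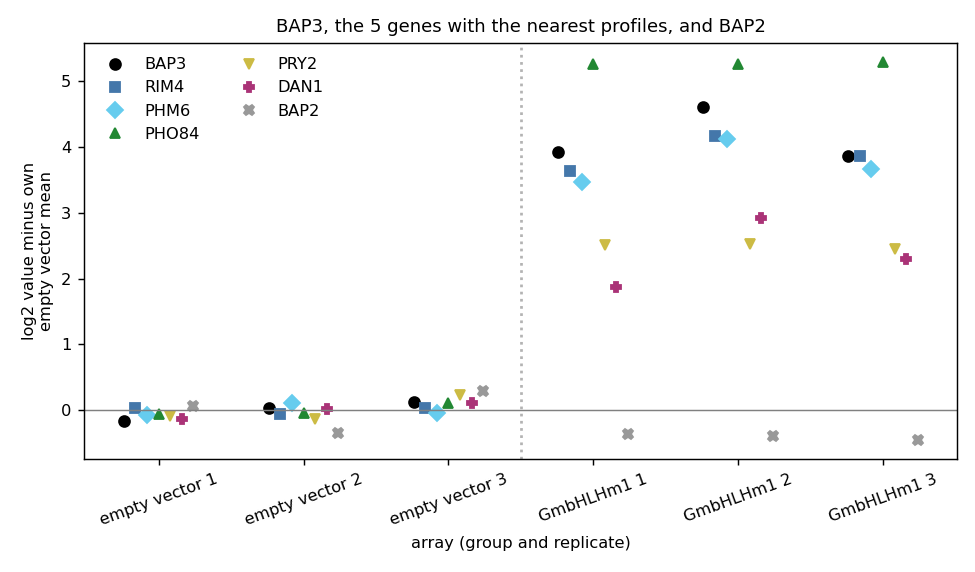
Log2 value of BAP3, of the 5 genes nearest to it and of BAP2 on each array, relative to the gene's own empty vector mean. On the GmbHLHm1 arrays BAP3, RIM4 and PHM6 run together with replicate 2 highest, PHO84 lies above them at about the same value on all 3, and BAP2 lies below 0.

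The genes next to the permease genes on the chromosomes were examined as well. The neighbours of BAP3, RPC11, which encodes a subunit of RNA polymerase III, and HEM12, which encodes an enzyme of heme synthesis, had log2 differences of 0.06 ± 0.08 and -0.0042 ± 0.06 (SE; limma, adjusted p = 0.69 and 0.976). Of the 18 neighbours that are not members, 1 rose and 1 fell with limma, where 12.1% of all tested genes changed, 7.45% higher and 4.64% lower. TIP1, a cell wall mannoprotein gene beside BAP2, rose by 0.83 ± 0.12 (SE; limma, adjusted p = 0.00617), while BAP2 read lower. YPL264C beside DIP5 fell by 0.54 ± 0.06 (SE; limma, adjusted p = 0.00259).

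Most of the other plasma membrane permease genes for amino acids and peptides read lower in GmbHLHm1 cells. Their list was chosen with earlier results of these data known, so its count and median are description only. Of 18 such genes 11 fell and none rose with limma over all tested genes (1 was higher at an unadjusted p under 0.05). Over all tested genes 4.64% fell and 7.45% rose. The median log2 difference was -0.35 in the list against 0.02 over all tested genes. UGA4, the permease gene for gamma-aminobutyrate, fell by 0.76 ± 0.06 (SE; limma, adjusted p = 0.000308), with group means of 10.83 ± 0.06 and 10.07 ± 0.08 (SD, 3 arrays each). MMP1, the S-methylmethionine permease gene, fell by 0.71 ± 0.10 (SE; limma, adjusted p = 0.00516), from 12.24 ± 0.04 to 11.53 ± 0.21. GAP1, the general amino acid permease gene, fell by 0.59 ± 0.13 (SE; limma, adjusted p = 0.0328). Its values of 12.57, 12.85 and 12.70 in the empty vector and 12.15, 11.85 and 12.36 in GmbHLHm1 did not overlap.

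The count of 11 became 5, 6 and 4 without empty vector replicate 1, 2 or 3, and 4 without moderation of the variances. UGA4 passed in each of the 13 alternative fits, and MMP1 in all but the one without moderation (adjusted p = 0.0638). GAP1 did not pass without empty vector replicate 1, 2 or 3 or without GmbHLHm1 replicate 1 (adjusted p = 0.0743, 0.116, 0.101 and 0.0555). PTR2, a di- and tripeptide transporter gene that is also known to respond to the amino acid sensor, had a log2 difference of -0.22 ± 0.08 and overlapping groups. The list ran from -0.76 to 0.34. GNP1 and BAP2 lay inside that range, DIP5 was level with its lower end, and BAP3 lay far above it.

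**Figure D4:**
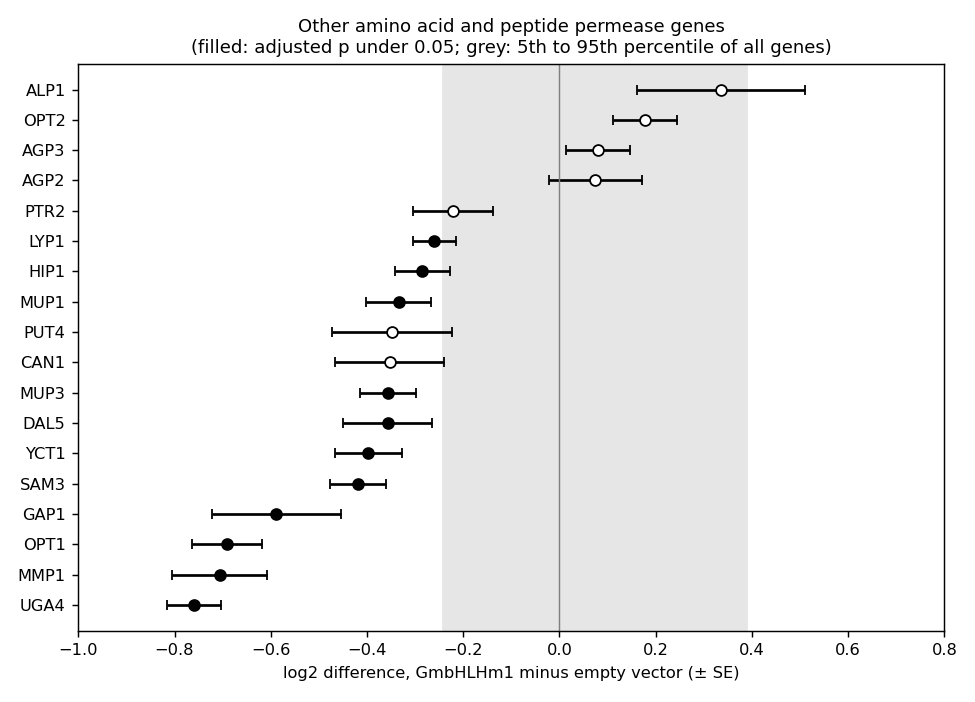
Log2 difference with its standard error for the 18 other permease genes, GmbHLHm1 minus empty vector; filled points passed limma's test over all genes at an adjusted p of 0.05, and the grey band runs from the 5th to the 95th percentile of all tested genes. The 11 filled points all lie below 0, down to -0.76 for UGA4.

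The partners and regulators of Ssy1 came next. Of 13 genes for sensor signalling other than the members 2 rose and none fell with limma (2 were lower at an unadjusted p under 0.05). Their median log2 difference was 0.00. Over all tested genes 12.1% passed, 7.45% higher and 4.64% lower. This list and those below were also chosen with earlier results known, so their counts are description only. YCK2, a casein kinase gene whose product acts on Ptr3 in this pathway, rose by 0.34 ± 0.05 (SE; limma, adjusted p = 0.00919, and 0.0528 without empty vector replicate 1). CDC34, the gene of a ubiquitin-conjugating enzyme, rose by 0.21 ± 0.05 (SE; limma, adjusted p = 0.0307). CDC34 did not pass without empty vector replicate 1, 2 or 3 (adjusted p = 0.126, 0.07 and 0.131) or without GmbHLHm1 replicate 2 or 3 (0.058 and 0.0581). The list held 0 to 3 calls in the fits without 1 array, the 0 being without empty vector replicate 1. PTR3 and SSY5, the genes of the complex partners, had log2 differences of -0.04 ± 0.05 and -0.09 ± 0.06, with overlapping groups. DAL81, a transcription factor gene that assists Stp1 and Stp2 at permease promoters, had 0.18 ± 0.05 and did not pass (limma, adjusted p = 0.0632).

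Among 11 other factors known to act at permease promoters 1 rose and 1 fell with limma, and the median was 0.00. Over all tested genes 7.45% rose and 4.64% fell. CYC8, which encodes a subunit of the Tup1-Cyc8 corepressor, rose by 0.65 ± 0.05 (SE; limma, adjusted p = 0.000514), with group means of 8.84 ± 0.05 and 9.49 ± 0.07 (SD, 3 arrays each), while its partner TUP1 had a log2 difference of -0.01 ± 0.05. DAL80, the gene of a GATA repressor of nitrogen use, fell by 0.53 ± 0.10 (SE; limma, adjusted p = 0.0147), and did not pass without empty vector replicate 2 or 3 (adjusted p = 0.0539 and 0.0632). The activator genes GCN4, GLN3 and GAT1 had log2 differences of -0.01, -0.07 and 0.04. Of 19 genes for the export and turnover of permeases none passed limma's test over all genes; at an unadjusted p under 0.05 there were 3, and with array weights ART5 passed (adjusted p = 0.0388). The one with the smallest p, ART5, an adaptor gene for the ubiquitin ligase Rsp5, had 0.29 ± 0.10 (SE; limma, adjusted p = 0.108).

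Among the 12 vacuolar amino acid transporter genes tested, 1 rose and 1 fell with limma, where 7.45% of all tested genes rose and 4.64% fell. VBA3, named for the transport of basic amino acids at the vacuole, rose by 2.08 ± 0.06 (SE; limma, adjusted p = 4.65e-06), with group means of 6.05 ± 0.10 and 8.13 ± 0.06 (SD, 3 arrays each), a fold of 4.22. VBA5, a close relative of VBA3, is not named by the annotation used here, so signal from it cannot be told apart. VBA2 fell by 0.33 ± 0.06 (SE; limma, adjusted p = 0.0187), and did not pass without empty vector replicate 1, 2 or 3 (adjusted p = 0.0911, 0.0635 and 0.0708). The other 10 of the 12 vacuolar genes tested did not pass, and the median was -0.04.

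The genes that make and break down the substrates of Bap2, Bap3, Tat1 and Tat2 were counted last. Beside their counts stand the shares over all tested genes, 7.45% higher and 4.64% lower with limma. Of 12 genes of branched-chain amino acid synthesis, LEU3 included, 1 fell with limma and none rose (0 higher at an unadjusted p under 0.05), with a median log2 difference of -0.13. That gene was ILV1, for threonine deaminase, which fell by 0.35 ± 0.08 (SE; limma, adjusted p = 0.0307) and did not pass without empty vector replicate 1, 2 or 3 (adjusted p = 0.0927, 0.107 and 0.111). LEU3, the regulator of this pathway, had a log2 difference of 0.00 ± 0.04. Of 12 genes of aromatic amino acid synthesis 2 rose and none fell with limma (1 was lower at an unadjusted p under 0.05), with a median of 0.07. ARO2, for chorismate synthase, rose by 0.76 ± 0.06 (SE; limma, adjusted p = 0.00057), with group means of 10.94 ± 0.07 and 11.71 ± 0.09 (SD, 3 arrays each). TYR1, for prephenate dehydrogenase, rose by 0.18 ± 0.04 (SE; limma, adjusted p = 0.0348) and did not pass without any 1 array other than GmbHLHm1 replicate 1, with adjusted p between 0.0596 and 0.147, nor with median centring (0.0561).

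Of 11 genes for the breakdown of branched-chain and aromatic amino acids 1 rose and 2 fell with limma, with a median of -0.06. Over all tested genes 7.45% rose and 4.64% fell. ARO9, the gene of an aromatic aminotransferase, read 7.98, 8.21 and 8.41 in the empty vector and 9.14, 9.45 and 9.29 in GmbHLHm1. The groups were well separated, and the rise was 1.09 ± 0.12 (SE; limma, adjusted p = 0.00198). ARO10, the decarboxylase gene of the same route, had a log2 difference of -0.06 ± 0.07 and did not pass. SFA1, an alcohol dehydrogenase gene, and PDC5, a pyruvate decarboxylase gene, fell by 0.21 each (limma, adjusted p = 0.0233 and 0.04). Neither passed when empty vector replicate 1, 2 or 3 was left out (adjusted p up to 0.102 and 0.16), nor SFA1 without GmbHLHm1 replicate 3 (0.0526), nor PDC5 without GmbHLHm1 replicate 1 or 2 (0.0593 and 0.0626). The count of 3 then came to 1 without any 1 empty vector array, with ARO9 kept in each case.

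**Figure D5:**
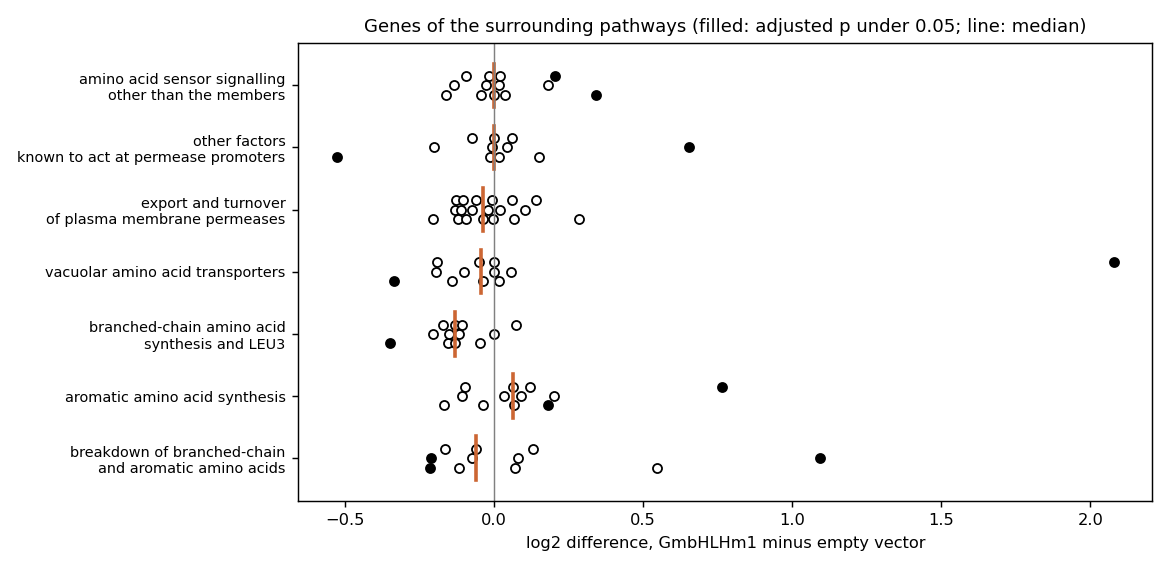
Log2 difference, GmbHLHm1 minus empty vector, of each gene in the 7 surrounding lists; filled points passed limma's test over all genes at an adjusted p of 0.05, and the orange line is the list's median. The medians lie between -0.13 and 0.07, and the points farthest to the right are VBA3 at 2.08, ARO9 at 1.09, ARO2 at 0.76 and CYC8 at 0.65.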

How the data were processed

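RNA of 3 empty vector and 3 GmbHLHm1 cultures was measured on Affymetrix arrays. The authors deposited linear-scale intensities, and RMA is the method named in the submitters' processing notes; its software and settings are not stated there. Linearity was read from the values. Their log2 was taken here. Of 10928 probe sets, 5498 had 1 gene of the S. cerevisiae table (assembly R64, used for names and neighbours only), giving 5449 genes, and for the 47 with several probe sets the one with the highest mean stood for the gene. A fission yeast probe set also named stp1 was not used. Another 1746 probe sets, named outside that table, set the background. The test was limma's moderated one (version 3.58.1, R 4.3.3; lmFit, eBayes, two-sided and without a block), adjusted by Benjamini-Hochberg over all 5449 genes at a threshold of 0.05. On simulated data of 5449 genes with 3 arrays per group it recovered 89.6% of genes changed by 0.5 log2 units and 97.6% of those changed by 1. These shares describe the simulated data only, and whether they hold on the measured arrays was not tested. The measured groups were unequal in spread (median SD 0.0502 without and 0.0875 with GmbHLHm1), and array weights ran from 0.347 to 1.84. Figures used matplotlib 3.10.9.

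The 10 members and the gene lists were chosen with earlier results of these data known. All members are named; of each list the 2 highest and 2 lowest genes past the test are named, where there are any, or else the one with the smallest p. PTR3, SSY5, GAP1, MEP1, MEP2, MEP3, URA3, the 5 genes most like BAP3, its neighbours and neighbours past the test are named too. PTR2, DAL81, TUP1, GCN4, GLN3, GAT1, LEU3 and ARO10 were added after their values were seen. YPQ3, of the vacuolar list, is not named by the annotation. Alternatives were a replicate block, quantile normalization, median centring, a filter on dim genes, array weights, no moderation, the mean over probe sets, mean intensities for the members, and leaving out each array.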

Additional observations from a re-analysis of the deposited data

How the results depend on the processing

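BAP2, BAP3, GNP1, TAT1, DIP5 and SSY1 kept the direction of their difference under each of the 14 alternatives, and BAP3 stayed between 3.90 and 4.27. Some of these alternatives could not change a member's difference. They are the replicate block, the filter on dim genes, no moderation and the mean over probe sets. AGP1, TAT2, STP1 and STP2 had values on both sides of 0. The 659 genes past limma's test became 427 with a replicate block and 284 without moderation. They became 251, 341 and 293 without empty vector replicate 1, 2 or 3. Without GmbHLHm1 replicate 1, 2 or 3 they became 723, 720 and 462. Quantile normalization moved their split from 406 higher and 253 lower to 331 and 332. Same-numbered arrays of the groups had deviations correlated at -0.07, -0.08 and 0.14, and differently numbered ones at -0.14 to 0.19. With 3 arrays per group this cannot settle whether same-numbered arrays share a culture or day, so the main fit had no block. With the replicate block the sensor signalling list had 1 call, the vacuolar 1, the branched-chain 0, the aromatic 1 and the breakdown list 1. Without moderation the other permeases had 4 calls, the promoter factors 1, the vacuolar list 1 and the branched-chain list 0. Of the named genes, CDC34, DAL80, GAP1, ILV1, MEP1, MEP3, MMP1, PDC5, TIP1, URA3 and VBA2 did not pass without moderation, nor CDC34, GAP1, ILV1, PDC5, SFA1, TYR1 and VBA2 with the block, which changed no other call of a named gene above background. With array weights sensor signalling had 4 calls and export and turnover 1. Without 1 array the calls ran from 0 to 3 for sensor signalling, 4 to 11 for other permeases, 1 to 2 for promoter factors, 1 to 3 for the vacuolar list, 0 to 2 for branched-chain synthesis, and 1 to 2 for aromatic synthesis and for breakdown. HEM12, at -0.0042, ran from -0.051 to 0.0344 without 1 array, above 0 at 0.0104, 0.0344 and 0.0041 without empty vector replicate 1 or GmbHLHm1 replicate 1 or 3. The fits without 1 array all had fewer degrees of freedom, while their counts of genes past the test ran from 251 to 723 against 659. The cause of these changes, and of those under the other alternatives, was not tested. BAP3 lay near background in the empty vector, so the size of its fold depends on 3 dim values. Its spread was larger in GmbHLHm1 (SD 0.41) than in the empty vector (SD 0.14).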
